A study of Oryza sativa with 8 samples.

Results

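The genes described here encode 8 enzymes of rice that remove superoxide and hydrogen peroxide: the catalases CATA (LOC_Os02g02400), CATB (LOC_Os06g51150) and CATC (LOC_Os03g03910), the copper/zinc superoxide dismutases SODCC1 (LOC_Os03g22810) and SODCC2 (LOC_Os07g46990), the mitochondrial manganese superoxide dismutase Mn-SOD (LOC_Os05g25850), and the ascorbate peroxidases APX1 (LOC_Os03g17690) and APX2 (LOC_Os07g49400). They were chosen by locus identifier, and all 8 have a row among the 34119 of the table. The chromosome is the number after "Os" in each identifier. The study measured transcripts in whole 14-day-old rice seedlings that had spent 7 days on solid medium and 7 days in liquid medium. Wild-type seedlings, called NIP by the submitters, were left untreated (WT_control, 3 libraries) or placed in a 20% solution of polyethylene glycol (PEG) 8000 for 3 h (WT_PEG, 2 libraries), which withdraws water from the plant. Seedlings of the SDG708 knockdown line 708Ri-1-1 received the same PEG treatment (708RNAi_PEG, 3 libraries). SDG708 belongs to the SET-domain proteins, many of which methylate histone H3. The knockdown is represented by a single line, no untreated seedlings of that line were analysed here, and the knockdown of SDG708 itself was not checked here. A difference between 708RNAi_PEG and WT_PEG therefore cannot be divided into a part that needs PEG and a part that does not.

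Superoxide, a by-product of electron transport in chloroplasts and mitochondria and a product of NADPH oxidases, is turned into hydrogen peroxide and oxygen by superoxide dismutases. Catalases then split hydrogen peroxide in peroxisomes, where photorespiration produces it through glycolate oxidase. Ascorbate peroxidases reduce it with ascorbate, which is afterwards regenerated with the help of glutathione. Loss of water slows carbon fixation in the leaf, and drought is a textbook condition under which these enzymes are studied.

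Values are FPKM, that is fragments counted per length of gene and per size of a library denominator, as the authors deposited them. Whole reads could be recovered from the steps between FPKM values in every row (within 0.03 reads), and the libraries held between 30817289 and 49706703 reads. The 8 genes are well covered, with between 2346 reads (SODCC2 in WT_control replicate 2) and 57983 reads (CATA in WT_control replicate 3) per library. Nothing in the labels states that replicates are separate plants, so the p-values rest on a spread between libraries that may be technical. WT_control replicate 3 stood apart from the other WT_control libraries, with a mean chi-square per gene of 15.5 and 13.2 against replicates 1 and 2, which differed from each other by 2.21. SODCC1 and SODCC2, and likewise APX1 and APX2, encode similar proteins, and the sources used here do not state how reads matching more than 1 copy were counted, nor whether the counting used strand.

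In untreated seedlings CATA was the most abundant of these transcripts. It stood at 486 ± 19.6 FPKM (SD, n = 3), followed by APX2 at 206 ± 10.3 and CATC at 202 ± 1.86 FPKM, whose libraries overlapped. APX1 had 141 ± 7.18, CATB 50.2 ± 2.05, SODCC1 37.4 ± 2.25, SODCC2 29.2 ± 1.84 and Mn-SOD 24.3 ± 1.88 FPKM, each without overlap with its neighbour in the order. All of them lay in the upper part of the distribution, Mn-SOD above 89.0% and CATA above 99.7% of tested genes. After PEG the first place went to APX2, followed by APX1 and then CATA, in wild-type and in the knockdown line alike. Under PEG the order of wild-type ran on through CATC, CATB, SODCC2, Mn-SOD and SODCC1, again with no overlap between neighbours. In the knockdown line CATB, SODCC2 and CATC followed, and APX2 overlapped APX1, CATB overlapped SODCC2 and SODCC2 overlapped CATC. The length behind an FPKM spans the whole gene, introns included, and for SODCC1 the recovered length of 5422 bp was 167.6% of the length of that gene in the reference table. Reads counted for SODCC1 could thus include sequence outside that gene, which was not tested and bears on every SODCC1 value below, its share of SODCC reads included. Levels of different genes are comparable only per length of the authors' gene models.

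**Figure D1:**
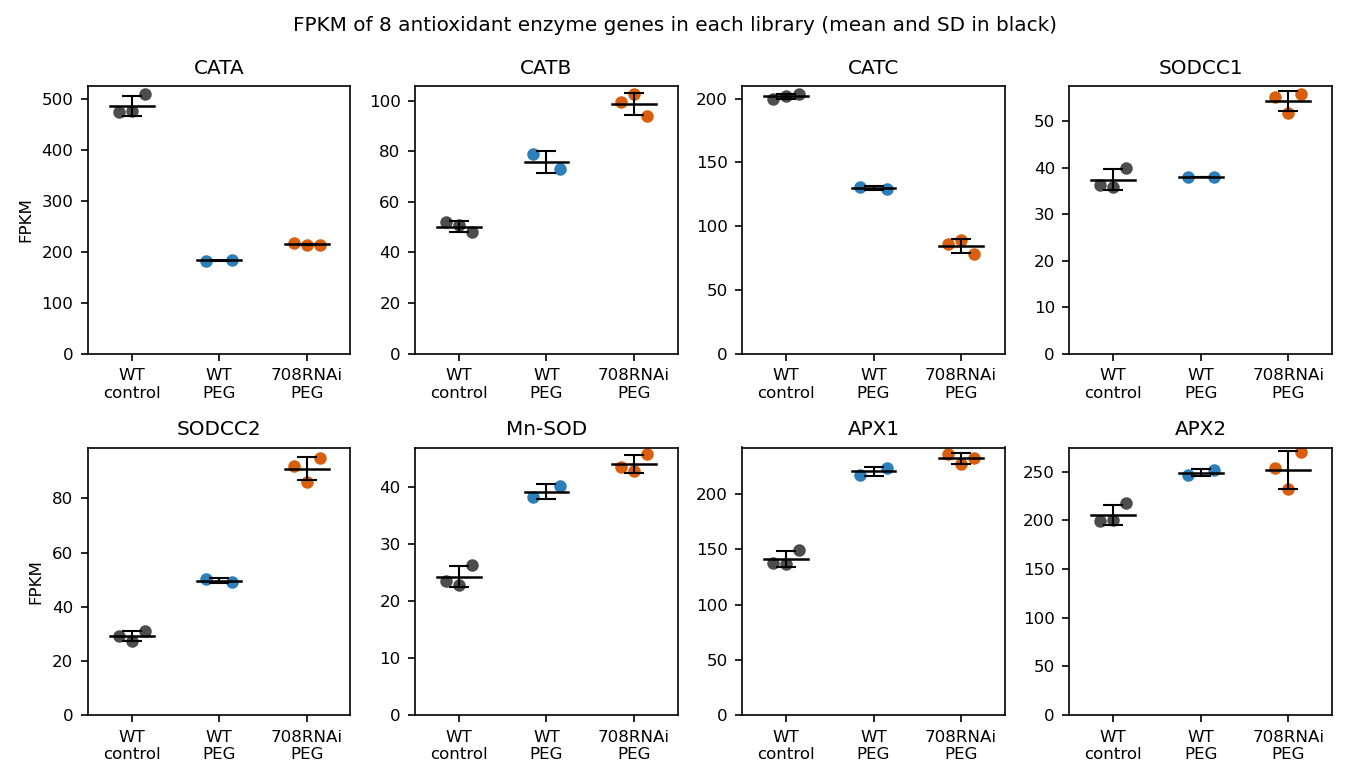
FPKM (vertical axes, starting at 0) of each gene in the 3 WT_control, 2 WT_PEG and 3 708RNAi_PEG libraries, 1 point per library, with the mean and SD in black. CATA and CATC are lower in every PEG library than in any untreated one, SODCC2 rises in 2 steps from 29.2 to 49.6 and 91.0 FPKM, and SODCC1 stands apart only in the knockdown line.

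The first comparison asked how these transcripts differ between wild-type seedlings under PEG and untreated ones. Of the 8 genes 5 rose and 2 fell, and SODCC1 did not pass (limma on log2(FPKM + 1) with a Benjamini-Hochberg adjusted p under 0.05 over 20943 tested genes, all 3 groups in the same model). Among all tested genes 75.3% passed, 38.6% as higher and 36.8% as lower, so the number of genes that passed is near what this comparison gave anywhere in the genome. The near-even split, 8076 higher and 7702 lower, belongs to the deposited scaling, and it was 6520 and 9205 with total recovered reads and 6518 and 9269 with limma-voom. The median log2 fold change of the 8 genes was 0.43, against 0.02 over all tested genes. The libraries of 7 of the 8 genes did not overlap between the groups, and the same held for 82.4% of tested genes.

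Among the superoxide dismutases, SODCC2 and Mn-SOD rose under PEG and SODCC1 did not pass. SODCC2, a copper/zinc enzyme, measured 29.0, 27.4 and 31.0 FPKM in the untreated libraries and 50.2 and 49.1 FPKM under PEG. Every treated library lay above every untreated one, and the ratio of means was 1.70 (log2 fold change 0.75 ± 0.06 SE, limma adjusted p = 3.4e-06). Mn-SOD, the enzyme of the mitochondrial matrix, measured 23.6, 22.9 and 26.4 FPKM untreated and 38.3 and 40.2 FPKM treated. Its groups did not overlap either, with a ratio of 1.61 (log2 fold change 0.67 ± 0.06 SE, limma adjusted p = 9.4e-06). SODCC1, the other copper/zinc enzyme of the set, measured 36.3, 36.0 and 40.0 FPKM untreated and 38.1 and 38.0 FPKM treated. The treated values fell inside the untreated range, and the log2 fold change was 0.02 with an unadjusted 95% interval from -0.11 to 0.16 (limma adjusted p = 0.71). SODCC1 passed as lower with libraries scaled to total recovered reads (log2 fold change -0.12, limma adjusted p = 0.046), with limma-voom on those reads (-0.12, adjusted p = 0.032) and under quantile normalization (-0.23, limma adjusted p = 0.00029). The members' count was then 4 higher and 3 lower, 5 and 3, and 4 and 3 in that order.

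The catalases went in opposite directions. CATA measured 473.0, 475.7 and 508.3 FPKM in untreated libraries and 182.2 and 183.5 FPKM under PEG. The gap between the groups was many times the spread within them, and CATA fell to 0.377 of its untreated mean (log2 fold change -1.40 ± 0.06 SE, limma adjusted p = 1.7e-08), a larger absolute change than that of 89.9% of tested genes. CATC, the catalase whose protein is abundant in rice leaves, measured 199.99, 201.8 and 203.7 FPKM untreated and 130.8 and 128.8 FPKM treated. It fell to 0.643 of its untreated mean without overlap (log2 fold change -0.63 ± 0.06 SE, limma adjusted p = 7.3e-06). CATB, the remaining catalase, measured 51.9, 50.8 and 47.9 FPKM untreated and 79.0 and 72.9 FPKM treated. It rose 1.51-fold, again without overlap (log2 fold change 0.59 ± 0.06 SE, limma adjusted p = 1.5e-05). The sum of the 3 catalase values, 725, 728 and 760 FPKM untreated, came to 392 and 385 FPKM under PEG, 0.527 of the untreated mean.

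Both cytosolic ascorbate peroxidases rose under PEG. APX1 measured 137.3, 136.5 and 149.4 FPKM untreated and 217.7 and 223.6 FPKM treated, a ratio of 1.56 without overlap (log2 fold change 0.64 ± 0.06 SE, limma adjusted p = 5.3e-06). APX2 measured 199.8, 200.3 and 217.8 FPKM untreated and 246.7 and 251.9 FPKM treated. Its groups did not overlap, but the ratio of 1.21 was the smallest of the genes that passed (log2 fold change 0.28 ± 0.07 SE, limma adjusted p = 0.0075). The call of APX2 was lost with scaling to total recovered reads (log2 fold change 0.13, limma adjusted p = 0.065) and with quantile normalization, where the log2 fold change turned to -0.079 (limma adjusted p = 0.18).

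The second comparison asked how the knockdown line differs from wild-type when both stand in PEG. Of the 8 genes 4 were higher in 708RNAi_PEG and 1 was lower, while Mn-SOD, APX1 and APX2 did not pass. Over all tested genes 37.6% passed, 21.3% as higher and 16.4% as lower. That balance of 4451 higher and 3428 lower turned to 3441 and 4402 with total recovered reads, 3483 and 4724 with limma-voom and 3507 and 3887 with quantile normalization. The median log2 fold change of the 8 genes was 0.19, against 0.01 over all tested genes, and 7 of the 8 had groups without overlap, as did 62.9% of tested genes.

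Both SODCC genes were higher in the knockdown line, and SODCC2 showed the largest difference of the set. SODCC2 measured 92.1, 86.2 and 94.8 FPKM in the knockdown libraries, all far above the 50.2 and 49.1 FPKM of wild-type under PEG. The ratio of means was 1.83 (log2 fold change 0.86 ± 0.06 SE, limma adjusted p = 1.1e-05), and 97.2% of tested genes had a smaller absolute change in this comparison. SODCC1 measured 55.4, 51.9 and 55.9 FPKM against 38.1 and 38.0 FPKM, without overlap and with a ratio of 1.43 (log2 fold change 0.50 ± 0.06 SE, limma adjusted p = 0.00018). SODCC1 thus passed in this comparison and not under PEG in wild-type, though the difference between those effects was not tested. Mn-SOD measured 43.6, 42.9 and 45.8 FPKM against 38.3 and 40.2 FPKM, which do not overlap. Its log2 fold change of 0.16 did not pass (limma adjusted p = 0.077), with an unadjusted 95% interval from 0.02 to 0.31. Mn-SOD did pass without WT_control replicate 3 (limma adjusted p = 0.013), when libraries were weighted by their quality (0.019) and when the untreated group was kept out of the model (0.025).

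Among the catalases CATC was lower and CATA and CATB were higher in the knockdown line. CATC measured 85.7, 88.9 and 78.5 FPKM against 130.8 and 128.8 FPKM in wild-type under PEG. No library overlapped, and the ratio was 0.650 (log2 fold change -0.62 ± 0.06 SE, limma adjusted p = 5.8e-05), close in size to the ratio of 0.643 that CATC showed between treated and untreated wild-type. CATB measured 99.6, 102.7 and 94.1 FPKM against 79.0 and 72.9 FPKM, a ratio of 1.30 (log2 fold change 0.38 ± 0.06 SE, limma adjusted p = 0.0012). The call of CATB was lost with quantile normalization (log2 fold change 0.21, limma adjusted p = 0.11). CATA measured 215.8, 212.6 and 213.0 FPKM against 182.2 and 183.5 FPKM. These values do not overlap and their ratio was 1.17 (log2 fold change 0.22 ± 0.06 SE, limma adjusted p = 0.011), but CATA no longer passed when WT_PEG replicate 1 (limma adjusted p = 0.077) or replicate 2 (0.066) was left out, which leaves a lone WT_PEG library, or with quantile normalization (0.51). The summed catalase level, 401, 404 and 386 FPKM, overlapped the 392 and 385 FPKM of wild-type under PEG.

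The ascorbate peroxidases did not pass in this comparison. APX1 measured 236.6, 227.3 and 232.9 FPKM against 217.7 and 223.6 FPKM, with a log2 fold change of 0.07, an unadjusted 95% interval from -0.06 to 0.20 and a limma adjusted p of 0.35. APX2 measured 253.8, 231.9 and 270.3 FPKM against 246.7 and 251.9 FPKM. The knockdown libraries of APX2 lay on both sides of the wild-type ones, and the log2 fold change was 0.01 with an unadjusted 95% interval from -0.15 to 0.18 (limma adjusted p = 0.91). With quantile normalization both passed as lower, at log2 fold changes of -0.13 for APX1 (limma adjusted p = 0.028) and -0.17 for APX2 (0.029).

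**Figure D2:**
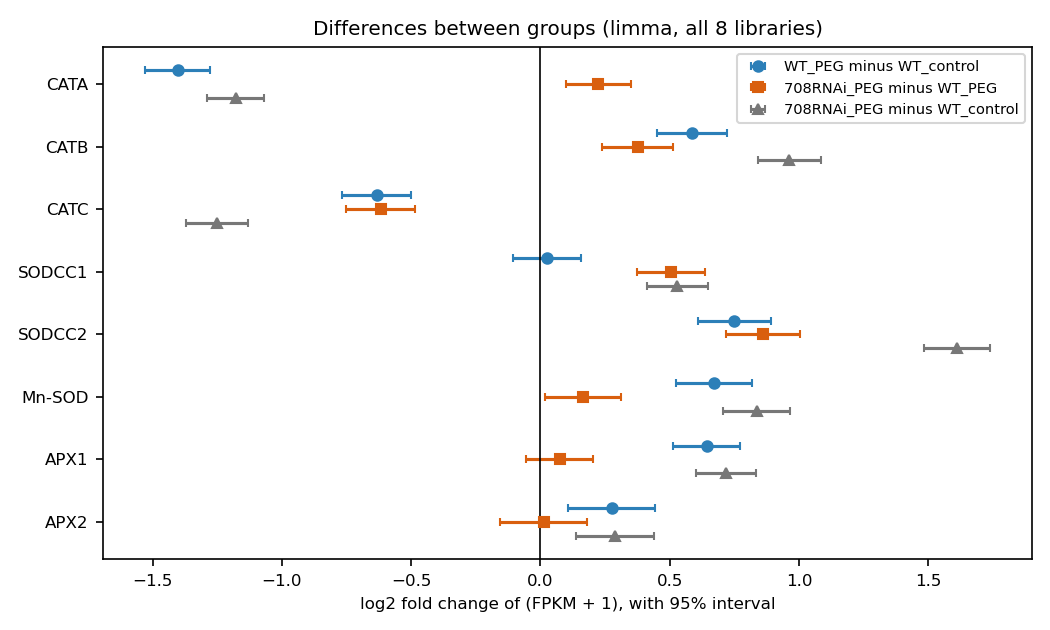
Log2 fold change of (FPKM + 1) for each gene (horizontal axis) with its unadjusted 95% interval, for WT_PEG against WT_control (circles), 708RNAi_PEG against WT_PEG (squares) and 708RNAi_PEG against WT_control (triangles). CATC lies left of 0 in all 3 comparisons, SODCC2 and CATB lie right of 0 in all 3, and CATA lies at -1.40, 0.22 and -1.18.

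A further comparison set 708RNAi_PEG beside WT_control, so that genotype and treatment both differ, and it shares its libraries with the other comparisons. Here 6 genes were higher and 2 lower, where 81.1% of tested genes passed, 41.0% as higher and 40.0% as lower. The 8592 higher and 8386 lower genes behind these percentages became 6706 and 10531 with total recovered reads and 6700 and 10655 with limma-voom. All 8 genes had groups without overlap, as did 82.3% of tested genes. SODCC2 stood at 3.12 times its untreated level (log2 fold change 1.61 ± 0.06 SE, limma adjusted p = 4.5e-09) and CATB at 1.97 times. CATC stood at 0.418 (log2 fold change -1.25 ± 0.05 SE, limma adjusted p = 1.7e-08) and CATA at 0.440 of the untreated level. Mn-SOD, APX1, SODCC1 and APX2 were higher, at ratios of 1.81, 1.65, 1.45 and 1.22. The call of APX2 was lost with scaling to total recovered reads (limma adjusted p = 0.19) and with limma-voom (0.14), and with quantile normalization it passed as lower (log2 fold change -0.25, limma adjusted p = 0.0006).

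The share of each gene in the reads of its family does not depend on how libraries are scaled to each other. It does grow with the length of the gene model, so the shares below are set against each other between libraries and not between genes. CATA made up 60.1%, 60.2% and 61.9% of catalase reads in untreated libraries, 40.0% and 41.3% in wild-type under PEG and 46.3%, 45.1% and 47.7% in the knockdown line. CATB went from 9.38% ± 0.592 (SD, n = 3) to 25.2% ± 1.03 (SD, n = 2) and 32.0% ± 0.533 (SD, n = 3), and CATC from 29.9% ± 0.453 to 34.2% ± 0.168 and 21.6% ± 0.769 in the same order. CATC thus held a larger share of a smaller sum in wild-type under PEG, and a smaller share of a sum of like size in the knockdown line. SODCC2 made up 23.8%, 22.9% and 23.3% of SODCC reads untreated, 34.0% and 33.5% in wild-type under PEG and 39.4%, 39.4% and 39.9% in the knockdown line, so that the 3 groups did not overlap. APX2 held 54.2%, 54.4% and 54.2% of the reads of its pair untreated and 48.0% and 47.8% in wild-type under PEG. Per length APX2 stayed the larger part, at 59.4% of the summed FPKM untreated, 53.1% in wild-type under PEG and 52.0% in the knockdown line, since the gene model of APX1 is 3421 bp long and that of APX2 2781 bp. In the knockdown line APX2 held 46.6%, 45.3% and 48.5%, which overlaps wild-type under PEG. In a two-sided exact permutation test the CATA and SODCC2 shares gave p = 0.2 between wild-type groups, p = 0.2 between the PEG groups and p = 0.1 against untreated seedlings (0.2 each after Benjamini-Hochberg adjustment over the 3 comparisons). The two-sided p was taken as 2 times the smaller p of either direction. With 3 against 2 and 3 against 3 libraries these are the smallest values that p can reach. For APX2 the exact p-values were 0.2, 0.6 and 0.1, adjusted to 0.3, 0.6 and 0.3.

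**Figure D3:**
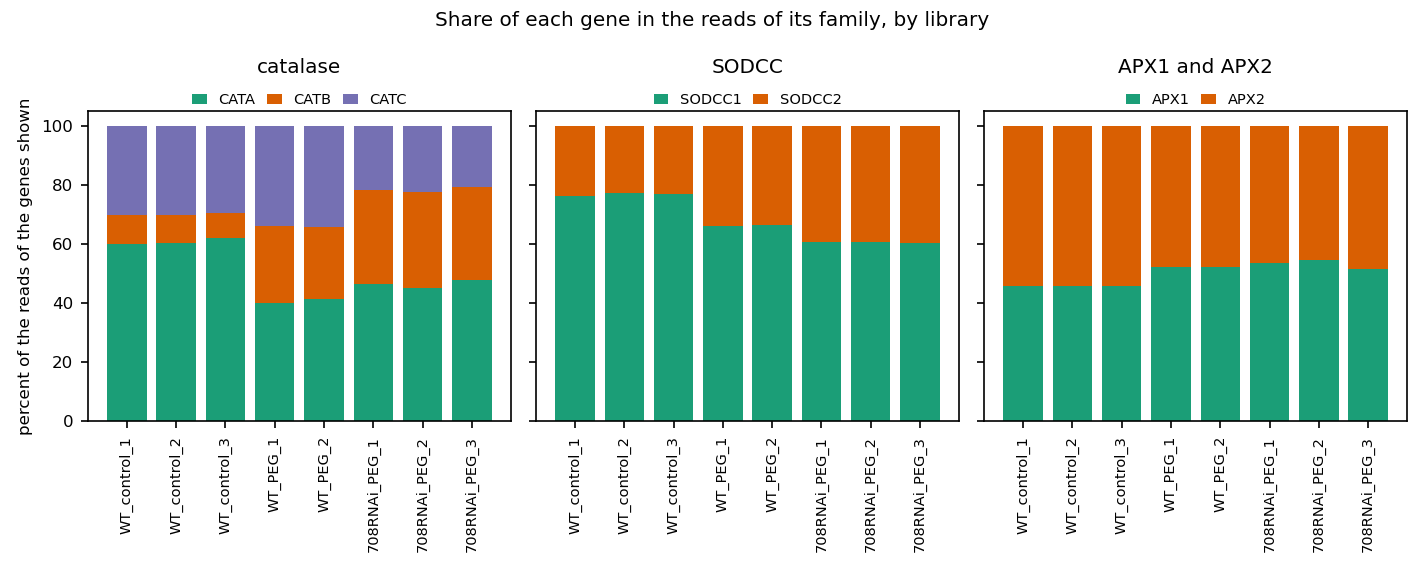
Percent of the reads of the catalase, SODCC and APX1/APX2 genes that came from each gene (vertical axis, stacked to 100), 1 bar per library. CATB takes 8.71% to 9.84% of catalase reads in untreated libraries and 31.5% to 32.5% in the knockdown line, and the SODCC2 part grows from 22.9% to 23.8% untreated to 39.4% to 39.9% in the knockdown line.

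Other genes of the same pathway were taken from lists of 41 loci. In the list of other superoxide dismutase genes, which includes the copper chaperone of the enzyme, 3 of 5 rose under PEG and 1 fell (38.6% and 36.8% of all tested genes). In the knockdown line under PEG 4 were higher and 0 lower (21.3% and 16.4% of all tested genes). The median log2 fold changes were 0.18 and 0.31. CCS (LOC_Os04g48410), known in yeast and Arabidopsis to load copper into copper/zinc superoxide dismutase, measured 7.69, 6.83 and 7.88 FPKM untreated, 10.97 and 11.8 FPKM in wild-type under PEG and 16.4, 15.8 and 16.7 FPKM in the knockdown line. Its log2 fold changes of 0.55 ± 0.06 (SE) under PEG and 0.49 ± 0.06 (SE) in the knockdown line both passed (limma adjusted p = 3.2e-05 and 0.00035), the same directions as SODCC2. SODCC1 passed as higher only in the knockdown line, with a log2 fold change of 0.02 under PEG. The plastid enzyme gene sodCp (LOC_Os08g44770) rose 1.13-fold under PEG (limma adjusted p = 0.035) and was higher by 1.48-fold in the knockdown line (limma adjusted p = 0.0002), where it stood at 46.9 ± 1.78 against 31.7 ± 1.03 FPKM.

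Of 6 other ascorbate peroxidase genes 4 were lower and 1 was higher under PEG (median log2 fold change -0.17), where 36.8% of all tested genes were lower. APX7, which in rice encodes a chloroplast enzyme, fell to 0.694 of its untreated level and APX6 to 0.752, while APX8, for another chloroplast enzyme, rose 1.23-fold. In the knockdown line APX7 was higher by 1.28-fold and APX4, for a peroxisomal enzyme, was lower at 0.820, and the other 4 did not pass. Over all tested genes 21.3% were higher and 16.4% lower there. Genes that recycle ascorbate and glutathione rose in 5 of 10 cases and fell in 2 under PEG (38.6% and 36.8% of all tested genes). In the knockdown line 0 were higher and 3 lower (21.3% and 16.4% of all tested genes). The medians were 0.12 and -0.05. Under PEG the largest rises were 5.34-fold and, from a mean of 0.459 FPKM, 13.5-fold, and the falls were to 0.695 and 0.897. The locus with the 13.5-fold rise was under 1 FPKM in every untreated library and entered the test only through PEG libraries. Its call, 1 of the 5 that rose, therefore adds nothing to its values. Only 4 of these 10 have a name in the reference table, and those chosen by the naming rule are not among them.

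Of 12 glutathione peroxidase and peroxiredoxin genes, whose products also reduce peroxides, 5 were higher and 5 lower under PEG. Over all tested genes 38.6% were higher and 36.8% lower, so these counts are near those of the genome. R1C-Prx (LOC_Os07g44430), the 1-cysteine peroxiredoxin known from cereal seeds, went from 4, 12 and 8 reads in untreated libraries to 311 and 261 reads in wild-type under PEG, or from 0.172 ± 0.0843 to 6.84 ± 0.528 FPKM. It was under 1 FPKM in every untreated library and entered the test only through PEG libraries. Its call as 1 of the 5 higher under PEG therefore adds nothing to the reads. In the knockdown line R1C-Prx was lower than in wild-type under PEG, at 3.75 ± 0.330 FPKM (log2 fold change -0.73 ± 0.08 SE, limma adjusted p = 0.00016). The peroxiredoxin gene PRXIIE-2 fell to 0.245 of its untreated level, bas1 fell to 0.695, and PRXIIF was higher in the knockdown line by 1.196-fold (limma adjusted p = 0.043). In all, 2 of the 12 were higher and 2 lower in the knockdown line, against 21.3% and 16.4% of all tested genes.

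Among genes for enzymes that produce hydrogen peroxide or superoxide, 2 of 7 tested rose and 5 fell under PEG (38.6% and 36.8% of all tested genes). In the knockdown line 0 were higher and 5 lower (21.3% and 16.4% of all tested genes). The median log2 fold changes were -0.38 and -0.30. GLO1 (LOC_Os03g57220), a glycolate oxidase of photorespiration and so a source of the peroxide that peroxisomal catalase removes, measured 226, 228 and 241 FPKM untreated, 176 and 178 FPKM in wild-type under PEG and 94.5, 92.9 and 89.8 FPKM in the knockdown line. The 3 groups of GLO1 did not overlap, and the ratio between the PEG groups was 0.521 (log2 fold change -0.93 ± 0.05 SE, limma adjusted p = 2.5e-06). GLO5, another glycolate oxidase gene, was at 0.571 in the same comparison (limma adjusted p = 4.5e-06) and at 0.814 under PEG in wild-type. CATC was lower in the same comparisons, at 0.650 and 0.643, while CATA stood at 1.17 and 0.377 and CATB at 1.30 and 1.51 in that order. A link between catalase and glycolate oxidase genes was not tested. RBOHB, for an NADPH oxidase of the plasma membrane, rose 1.44-fold under PEG. Other loci listed as NADPH oxidase genes, without a name in the reference table, went both ways. The largest falls of this list under PEG, to 0.428 and 0.505, were among them, and another rose 1.40-fold.

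**Figure D4:**
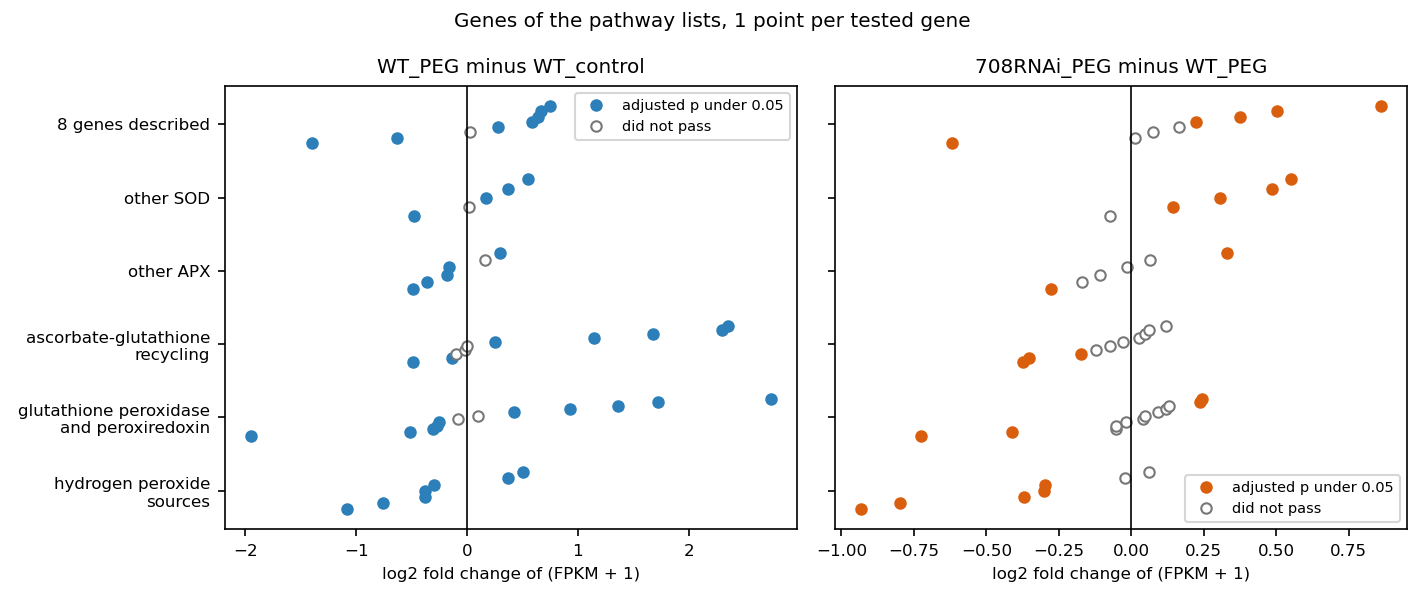
Log2 fold change of (FPKM + 1) of every tested gene of the pathway lists (1 point per gene, lists in rows), for WT_PEG against WT_control on the left and 708RNAi_PEG against WT_PEG on the right, with different horizontal ranges. Filled points passed at an adjusted p under 0.05. In the right panel the list of other superoxide dismutase genes has 4 filled points, all right of 0, and the list of peroxide sources has 5, all left of 0.

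The genes most like CATA and SODCC2, the members with the largest change under PEG, were found by the distance between log2(FPKM + 1) profiles over the 8 libraries, each centred on its untreated mean. Nearest to CATA among 20942 other tested genes was LOC_Os05g41640 (distance 0.0977), at 223, 225 and 224 FPKM untreated, 82.9 and 83.7 FPKM in wild-type under PEG and 99.2, 94.6 and 98.4 FPKM in the knockdown line. Next was LOC_Os08g23810 (distance 0.141). Nearest to SODCC2 was LOC_Os08g37670 (distance 0.166), at 76.9, 78.7 and 91.0 FPKM, 146 and 144 FPKM, and 249, 239 and 249 FPKM in the same order, and then LOC_Os01g64000 (distance 0.186). The tables used here give no name to these 4 loci.

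Transcripts that mark organs moved between the groups as well. In bulk seedlings fewer cells of a type and less RNA per cell cannot be told apart. Of 8 leaf markers 7 fell and 0 rose under PEG, and 5 were lower and 0 higher in the knockdown line. Over all tested genes 36.8% were lower under PEG and 16.4% in the knockdown line. The 5 markers lower in the knockdown line are all listed as antenna protein genes, at ratios from 0.631 to 0.752. Those listed as Rubisco small subunit genes did not pass there, at ratios of 1.03, 0.967 and 1.00. The summed level of the leaf markers ran from 21104 to 25168 FPKM untreated, 11939 to 13016 FPKM in wild-type under PEG and 9290 to 9915 FPKM in the knockdown line, with 0 of the 8 at 0 reads in any group. All 3 root markers fell under PEG, from a summed 422 to 455 FPKM untreated to 63.5 to 64.3 FPKM, and 1 was lower in the knockdown line, at a summed 50.1 to 53.8 FPKM. Seed markers were sparse in wild-type, with 147 to 175 summed reads untreated and 131 to 225 under PEG, and had 1282 to 2164 in the knockdown line. There the 4 of 8 that could be tested were all higher, against 21.3% of all tested genes. The others did not reach 1 FPKM in 2 libraries, so the filter shaped this count. GLUA1 was under 1 FPKM in every wild-type library and entered the test only through its knockdown libraries. Its call therefore adds nothing to the reads. At 0 reads were 3 seed markers in the untreated group and 1 in wild-type under PEG. The part of these shifts in the values of the 8 enzyme genes was not tested.

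The scale of the libraries moved with the groups too. Reads came to 88.6% ± 2.36 (SD, n = 3) of the FPKM denominator in untreated libraries, 97.8% ± 0.704 (SD, n = 2) in wild-type under PEG and 102% ± 0.956 (SD, n = 3) in the knockdown line. With scaling to total recovered reads the median over all tested genes (log2 fold change) went from 0.02 to -0.09 under PEG, and from 0.01 to -0.16 between the knockdown line and untreated wild-type. Relative to that median CATA was at -1.45, SODCC2 at 0.70 and APX2 at 0.23 under PEG, and SODCC1 was at -0.022. In the authors' deposited table the log2 fold changes under PEG were -1.41 for CATA, 0.77 for SODCC2 and 0.02 for SODCC1, and that of Mn-SOD in the knockdown line was 0.17 with p = 0.021, a gene that did not pass here. The sources used here do not state whether those p-values are adjusted.

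**Figure D5:**
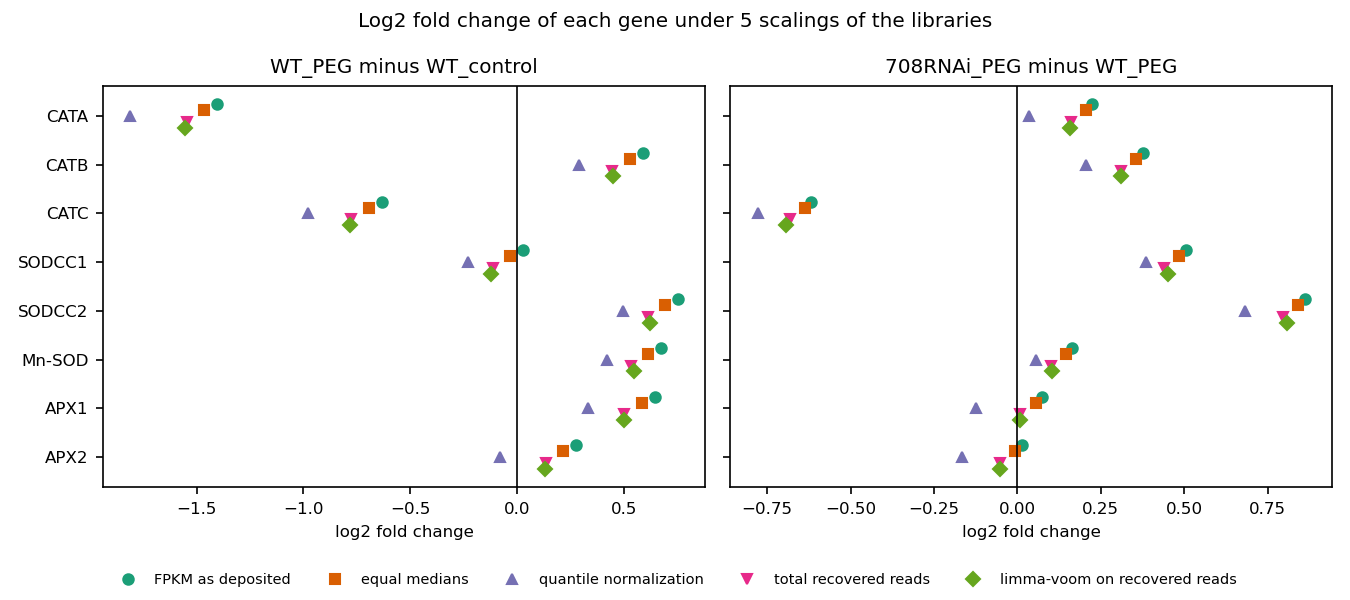
Log2 fold change of each gene (horizontal axis) with the FPKM as deposited and with 4 other scalings, for WT_PEG against WT_control on the left and 708RNAi_PEG against WT_PEG on the right. Quantile normalization gives the lowest value for every gene, from -1.81 for CATA to 0.50 for SODCC2 on the left, and SODCC1, APX1 and APX2 cross 0 under some scalings.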

How the data were processed

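Polyadenylated RNA of whole seedlings was sequenced from stranded libraries, as the labels' protocols state. The authors deposited FPKM per gene and library, group means, log2 fold changes and p-values for 2 comparisons, per the file headers. The submitters' processing notes name HISAT2, featureCounts, DESeq2, cutadapt, FastQC, deepTools and SAMtools without role or version, while build and annotation were not given in the sources used here. Groups and replicate numbers come from the sample titles.

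The 20943 genes that reached 1 FPKM in 2 or more libraries, all 8 members among them, entered a limma fit (version 3.58.1, R 4.3.3) of log2(FPKM + 1) (variance trend, 5 residual degrees of freedom, two-sided, Benjamini-Hochberg over all tested genes). The fit was also run on simulated reads with the same spread for every gene and few changed genes. These data differ in both respects, so that run does not give the error rate here. Fold changes on this scale understate those of low genes, and ratios are of mean FPKM. Shares used exact permutation tests (scipy 1.17.1). Alternatives were pseudocount, filter, 3 scalings, voom, the groups in the model, replicate block, array weights and each library left out.

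Members and lists were chosen with earlier results of these data known. Named were all members, of each pathway list the 2 genes with the largest change that passed in each direction and comparison, and the 2 genes nearest to each of the 2 members that changed most under PEG. MSU locus identifiers do not occur in the reference table (ASM3414082v1), which was used for names. It holds a name on the same chromosome and in the same order for 40 of 41 loci looked up, 36 of them with a length within 10%, and among the 8 members for 7, of which 6 have such a length. CATC has none there, so its name rests on the locus list. Pathway genes without a name there are counted, or given by their ratio without a name.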

Additional observations from a re-analysis of the deposited data

How the results depend on the processing

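Over 18 alternatives, 407 of 432 values of single genes kept their direction and side of the threshold. Many of these could not change direction. The filter, the groups in the model and the loss of a library outside the comparison leave the log2 fold change as it was. The count therefore overstates how stable the values are. All genes called between the knockdown line and wild-type under PEG numbered 7879, and 5174 to 9337 when 1 library was left out, the lowest without WT_PEG replicate 2. Quantile normalization gave 2 members higher and 3 lower in that comparison in place of 4 and 1. Under PEG, SODCC1 turned to -0.034 with equal medians, -0.23 with quantile normalization and -0.12 with total recovered reads or limma-voom, and ran from -0.0024 to 0.072 with 1 library left out. Between the PEG groups APX2 turned to -0.0066 with equal medians, -0.17 with quantile normalization, -0.053 with total recovered reads and -0.051 with limma-voom, and ran from -0.039 to 0.071 with 1 library left out. Quantile normalization also reversed APX2 under PEG (-0.079) and against untreated wild-type (-0.25), and APX1 in the knockdown line (-0.13). The cause was not tested. Correlations of same-numbered libraries ran from -0.23 to 0.36, over 0.1 in 3 of 7 pairs, so the numbers were not taken to pair libraries. With the replicate block 7714 genes passed between the PEG groups and 15849 under PEG, and APX2 turned to -0.033 between the PEG groups. Shares per coding length were not run, as no protein lengths were at hand. With 2 WT_PEG libraries, calls in the knockdown comparison rest on few values.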
